A study of Mus musculus with 6 samples.

Results

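The gene set described here holds 34 mouse genes that are known from T cells, natural killer (NK) cells and innate lymphoid cells, measured by RNA sequencing in cultured pro-B cells. The genes came from a written list of symbols. All 34 had a row of their own in the expression matrix, among 22551 distinct gene symbols in all. Pro-B cells are early B-lineage precursors. Bone marrow was grown as colonies in a methylcellulose medium for B cells and collected after 1 week, at passage 1. Of the 6 samples, 3 are titled wild-type and 3 are titled Ts1Rhr, a mouse strain carrying an added copy of part of chromosome 16 that corresponds to human 21q22. The genotype field reads Ts1Rhr for all 6, and neither the strain background nor the age of the animals is given in the sources used here. The matrix names its 6 libraries p1A1, p1A2, p1A3, p1C1, p1C2 and p1C3, and no label ties the letters A and C to a genotype. The libraries were therefore treated as 1 group of passage 1 pro-B cultures, and no genotype comparison and no test between groups was made.

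T cells recognise antigen through the T-cell receptor, which signals only together with the CD3 gamma, delta and epsilon chains and the zeta chain. CD4 and CD8 bind MHC molecules beside the receptor and bring the kinase LCK to it. LCK phosphorylates the CD3 and zeta chains, ZAP70 docks there, and ZAP70 then phosphorylates the adaptor LAT. NK cells carry receptors of the KLR family and NCR1 and kill with perforin and granzymes. ID2 binds E proteins, transcription factors that recognise the letters CANNTG, and it is needed for NK and innate lymphoid cells. Early lymphoid cells of several lineages share some of these genes, so the set holds both genes that define T or NK cells and genes that other blood cells also use.

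The 5 sequences shown are the 250 bases before the annotated start of genes that behaved differently in these libraries: Cd3g, Cd3d and Cd3e, which were low and varied from library to library, and Cd247 and Lat, which were well above 1 FPKM throughout. They are RefSeq sequences of build GRCm38.p6, read 5′ to 3′ on the strand of the gene, and capitals mark CANNTG. Cd3g (chr9:44980432-44980681, minus strand) and Cd3d (chr9:44981536-44981785, plus strand) are transcribed away from each other, with starts 1355 bases apart. Cd3e follows at chr9:45009612-45009861 on the minus strand, and the 3 CD3 genes span 40.1 kb.
Cd3g: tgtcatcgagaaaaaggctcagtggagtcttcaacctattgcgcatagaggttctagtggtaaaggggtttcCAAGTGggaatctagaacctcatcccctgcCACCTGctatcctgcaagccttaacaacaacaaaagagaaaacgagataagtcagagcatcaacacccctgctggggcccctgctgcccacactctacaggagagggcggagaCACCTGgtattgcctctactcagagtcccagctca
Cd3d: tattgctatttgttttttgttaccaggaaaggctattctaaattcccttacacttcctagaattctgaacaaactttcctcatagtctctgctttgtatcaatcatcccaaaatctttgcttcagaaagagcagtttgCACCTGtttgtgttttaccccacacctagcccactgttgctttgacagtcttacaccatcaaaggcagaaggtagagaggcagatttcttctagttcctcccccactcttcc
Cd3e: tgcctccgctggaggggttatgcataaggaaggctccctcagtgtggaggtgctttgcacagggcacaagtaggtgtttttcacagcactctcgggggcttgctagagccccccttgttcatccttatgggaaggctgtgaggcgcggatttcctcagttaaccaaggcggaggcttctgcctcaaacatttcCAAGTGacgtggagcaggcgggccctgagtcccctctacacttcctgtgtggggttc
Cd247: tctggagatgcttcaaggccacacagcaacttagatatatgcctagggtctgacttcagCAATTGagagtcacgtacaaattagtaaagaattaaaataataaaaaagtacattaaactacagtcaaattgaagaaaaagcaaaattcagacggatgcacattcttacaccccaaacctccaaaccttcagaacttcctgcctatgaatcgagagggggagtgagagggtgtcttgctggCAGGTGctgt
Lat: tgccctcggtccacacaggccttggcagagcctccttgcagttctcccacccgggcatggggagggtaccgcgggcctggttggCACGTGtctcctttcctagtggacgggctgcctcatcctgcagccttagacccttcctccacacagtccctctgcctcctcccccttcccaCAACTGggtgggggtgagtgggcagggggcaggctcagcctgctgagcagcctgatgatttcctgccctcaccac

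The Cd247 window lies at chr1:165788431-165788680 on the plus strand and the Lat window at chr7:126369569-126369818 on the minus strand. CANNTG, which reads the same on both strands, occurred 3 times in the Cd3g window, 2 times each in the Cd247 and Lat windows, and 1 time each in the Cd3d and Cd3e windows. It was present in 66.2% of the 32851 promoter windows of the same length, and 12.2% of them held 3 or more, so its presence did not set these genes apart.

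The labelled cell type was checked first. All 12 B-lineage markers, among them Cd79a, Vpreb1 and Pax5, were at or above 4.54 FPKM in every library, where FPKM is the authors' level in fragments scaled to transcript length and library size. All 12 myeloid markers were also present, at or above 2.45 FPKM in every library. Lyz2, the lysozyme of macrophages and neutrophils, was at 2457 to 4437 FPKM, above every B-lineage marker. Library p1A2 stood at an end of both lists: it had the lowest level of the 6 for 12 of the 12 B-lineage markers and the highest for 12 of the 12 myeloid markers. Read totals per library are not given in the sources used here. Steps in the low values put the depth of p1A3 at about 0.570 of that of p1A1 and the other 4 libraries at 0.940 to 1.13, so the lowest values of p1A3 rest on the fewest fragments.

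Most of the T, NK and innate lymphoid genes were near the floor, and a few were clearly expressed. In the median library, 9 of the 34 genes were at or above 1 FPKM, against 47.3% of all symbols. In every library, 7 of the 34 reached that level, against 45.7% of all symbols. These were Id2, Lat, Lck, Cd28, Cd247, Thy1 and Klrd1. A further 4, Nkg7, Tcf7, Cd8b1 and Cd5, reached it in at least 1 library, and the other 23 stayed below it in all 6. None of the 34 was listed at 0 in all libraries, whereas 23.5% of all symbols were. The median over the 34 genes of their median level was 0.293 FPKM, and over all symbols it was 0.584 FPKM. In bulk RNA, fewer cells of a type and less RNA per cell cannot be told apart, which holds for every level given here.

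**Figure D1:**
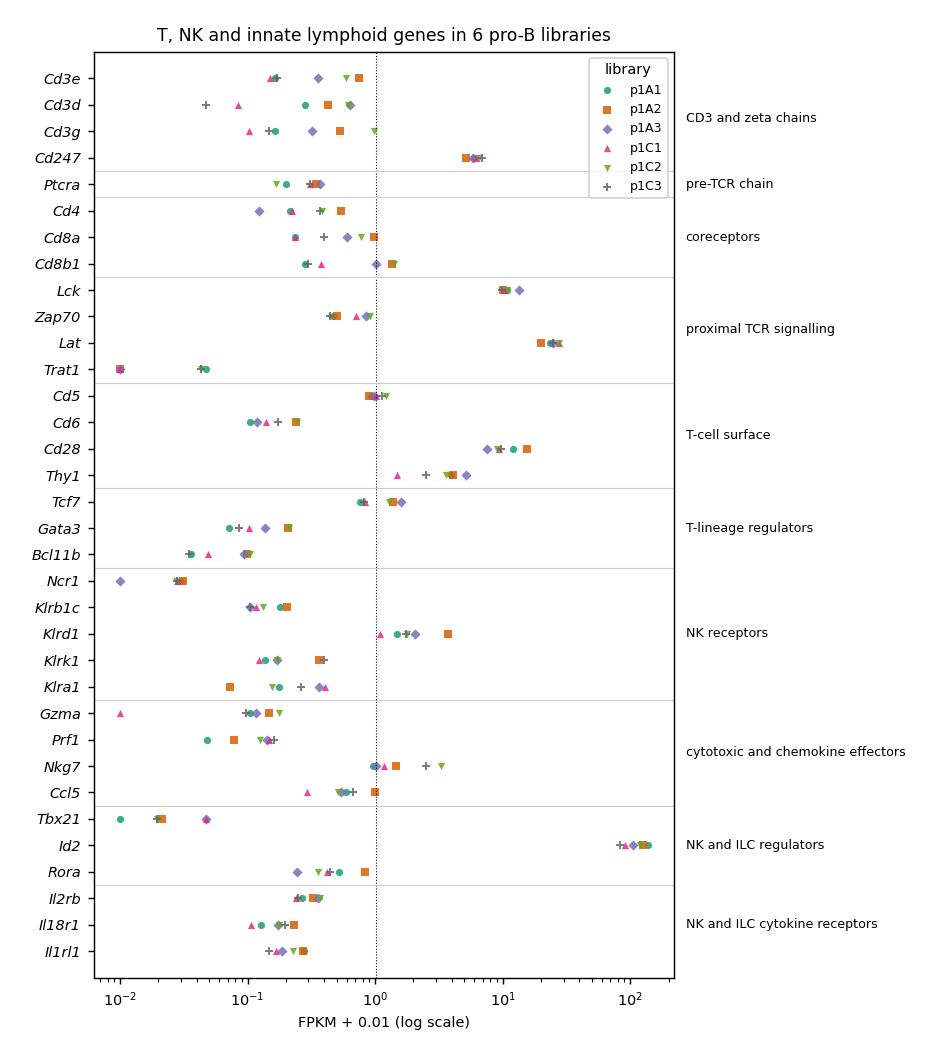
FPKM plus 0.01 on a log axis for each of the 34 genes (rows, grouped by role), with 1 symbol per library and a dotted line at 1 FPKM. Id2 lies at 83.6 to 137 FPKM, Lat, Lck, Cd28, Cd247 and Thy1 lie between 1.47 and 27.7 FPKM, and the CD3 gamma, delta and epsilon genes lie below 1 FPKM.

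The CD3 chains split into a low, uneven trio and 1 steady gene. Cd3e encodes CD3 epsilon and was at 0.734 FPKM in p1A2, 0.580 in p1C2, 0.344 in p1A3, 0.161 in p1C3, 0.155 in p1A1 and 0.140 in p1C1. Cd3d encodes CD3 delta and was at 0.630 FPKM in p1A3, 0.608 in p1C2, 0.421 in p1A2, 0.270 in p1A1, 0.0743 in p1C1 and 0.0373 in p1C3. For Cd3g, the gene of CD3 gamma, the values were 0.971 FPKM in p1C2, 0.522 in p1A2, 0.308 in p1A3, 0.155 in p1A1, 0.139 in p1C3 and 0.0919 in p1C1. In all 3 genes, p1A2, p1A3 and p1C2 were the 3 highest libraries and p1A1, p1C1 and p1C3 the 3 lowest, with no overlap. The Cd3d values of p1C1 and p1C3 differed by a factor of 2.02 after correction for depth, so they may rest on very few fragments, and these low levels are imprecise. An annotated antisense transcript overlaps exons of Cd3e, and the authors' counting is not stated to use strand.

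Cd247, the gene of the zeta chain, did not share this pattern. Its level was 5.17 FPKM in p1A2 at the lowest, 6.03 at the median and 6.93 in p1C3 at the highest, a range of 1.34-fold. Exons of Cd247 (chromosome 1, 165788681 to 165877277) overlap exons of Pou2f1 on the opposite strand. Pou2f1, which encodes the broadly expressed factor OCT1, was at 1.42 to 4.09 FPKM, so reads of the 2 genes cannot be told apart in the overlap. The zeta chain is also used by NK-cell receptors. Ptcra encodes the pre-T-cell receptor alpha chain of developing T cells and stayed between 0.158 and 0.361 FPKM.

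Both CD8 genes followed the CD3 trio, and Cd4 did so only in part. Cd8a, whose product CD8 alpha is also made by some dendritic cells, was at 0.966 FPKM in p1A2, 0.765 in p1C2, 0.591 in p1A3, 0.388 in p1C3, 0.227 in p1C1 and 0.224 in p1A1. Cd8b1, the CD8 beta gene that is more restricted to T cells, was at 1.40 FPKM in p1C2, 1.35 in p1A2, 1.00 in p1A3, 0.369 in p1C1, 0.289 in p1C3 and 0.274 in p1A1. Again p1A2, p1A3 and p1C2 lay above the other 3 libraries without overlap. The 2 genes neighbour each other on chromosome 6, 35.9 kb apart. Cd4, which macrophages and dendritic cells can also express, was at 0.527 FPKM in p1A2, 0.370 in p1C2, 0.357 in p1C3, 0.214 in p1C1, 0.207 in p1A1 and 0.113 in p1A3. Here p1A3 was the lowest library, unlike in the CD3 and CD8 genes.

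**Figure D2:**
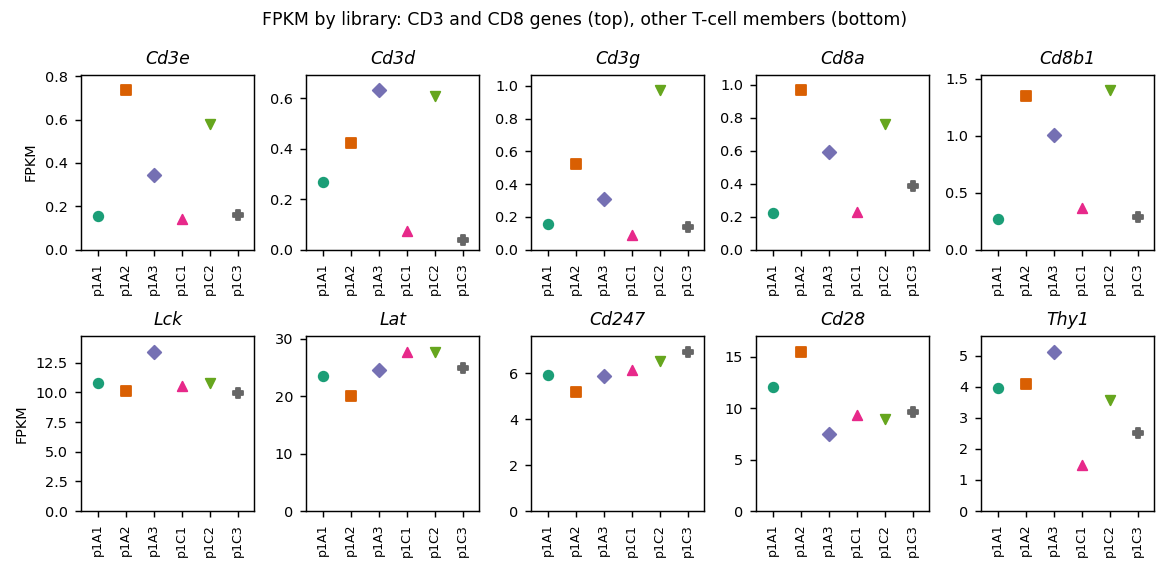
FPKM on linear axes from 0 for the CD3 gamma, delta and epsilon and CD8 genes (top) and for Lck, Lat, Cd247, Cd28 and Thy1 (bottom), with 1 symbol for each of the 6 libraries. In every upper panel p1A2, p1A3 and p1C2 lie above p1A1, p1C1 and p1C3, an order that none of the lower panels shows.

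Summed over the 5 CD3 and CD8 genes, the level was 4.32 FPKM in p1C2, 3.99 in p1A2, 2.88 in p1A3, 1.08 in p1A1, 1.01 in p1C3 and 0.902 in p1C1. The highest sum was 4.79 times the lowest. The same 3 libraries were on top in 11 of the 34 genes, these 5 included. The order was noticed in the 5 CD3 and CD8 genes after their values were seen, so it was not tested. Among the other 29 genes, 6 showed it, against 5.99% of the 15886 symbols with a median above 0. These were Tcf7, Gata3, Bcl11b, Klrd1, Gzma and Il2rb. The values of Bcl11b, and some of Gata3 and Gzma, were below 0.1 FPKM, where libraries cannot be ordered with confidence. The order did not run with the column letters, since both letters occur among the upper 3 libraries and among the lower 3.

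T-lineage regulators were low, and all 3 had the order of the CD3 genes in the listed values. For Bcl11b, every value was below 0.1 FPKM, and values of Gata3 were partly below it. At such levels libraries cannot be ordered with confidence. Tcf7 encodes TCF1, a factor that Notch signalling induces at the start of T-cell development. It was at 1.60 FPKM in p1A3, 1.38 in p1A2, 1.28 in p1C2, 0.817 in p1C1, 0.816 in p1C3 and 0.749 in p1A1. Gata3, a factor of T cells, type 2 innate lymphoid cells and other blood progenitors, ranged from 0.0616 to 0.202 FPKM. Bcl11b, which commits precursors to the T lineage, ranged from 0.0248 to 0.0943 FPKM. Exons of Gata3 overlap other annotated genes on both strands.

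Among the proximal signalling genes, the kinase Lck and the adaptor Lat were expressed in every library, while Zap70 was below 1 FPKM and Trat1 near 0. Lat was at 20.0 FPKM in p1A2 at the lowest, 24.7 at the median and 27.7 in p1C2 at the highest. Lck was at 13.4 FPKM in p1A3, 10.8 in p1A1 and p1C2, 10.5 in p1C1, 10.1 in p1A2 and 9.95 in p1C3, so that p1A3 stood above 5 nearly equal libraries. Both were thus steady, with ranges of 1.39-fold for Lat and 1.35-fold for Lck. LAT also serves in mast cells and platelets. Zap70 was at 0.430 to 0.905 FPKM. Trat1, an adaptor gene of T cells and the only one of the 34 genes on chromosome 16, was listed at 0 in 3 libraries and reached 0.0371 FPKM at most.

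Of the surface genes, Cd28 was the highest, and it was also the highest of the T-defining genes. CD28 is the co-stimulatory receptor of T cells. Its gene (chromosome 1, 60716800 to 60773359) was at 15.5 FPKM in p1A2, 12.04 in p1A1, 9.62 in p1C3, 9.33 in p1C1, 8.96 in p1C2 and 7.49 in p1A3. The 12 myeloid markers summed to 5281 FPKM in p1A2, 4239 in p1C2, 4006 in p1A1, 3929 in p1C3, 2905 in p1A3 and 2869 in p1C1. Lyz2 made up most of each of these sums. Cd28 and the myeloid sum shared their highest library, p1A2, and had different lowest libraries. Taken gene by gene, 12 of the 12 myeloid markers were highest in p1A2, against 22.7% of all symbols with a median above 0. Their lowest library was p1C1 for 6 markers, p1A3, as for Cd28, for 4 and p1C3 for 2. Whether the myeloid cells contribute to the level of Cd28 was not tested.

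Thy1, a surface glycoprotein of T cells that mouse progenitors and mast cells can also carry, was at 5.12 FPKM in p1A3, 4.10 in p1A2, 3.95 in p1A1, 3.56 in p1C2, 2.51 in p1C3 and 1.47 in p1C1. Cd5 restrains antigen-receptor signals in T cells and in B-1 cells and was nearly level, at 0.892 FPKM in p1A2 at the lowest, 0.987 at the median and 1.22 in p1C2 at the highest. Cd6, a related receptor of T cells, was at 0.0939 to 0.234 FPKM. Cd28, Thy1 and Cd5 each had a different highest library, while Cd6 was highest in p1C2, as Cd5 was. The surface genes thus did not share a single highest library.

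NK receptors were near 0 except Klrd1. Klrd1 encodes CD94, which pairs with NKG2 chains, and was at 3.73 FPKM in p1A2, 2.05 in p1A3, 1.78 in p1C2, 1.75 in p1C3, 1.48 in p1A1 and 1.08 in p1C1. Klrk1, the NKG2D gene that lies 11.5 kb from Klrd1 on chromosome 6, was at 0.114 to 0.389 FPKM. Klrb1c, which encodes NK1.1, was at 0.0946 to 0.194 FPKM, and its exons overlap another annotated gene. Klra1 of the Ly49 family was at 0.0627 to 0.394 FPKM, and reads may be split among its near-identical relatives. Ncr1, which encodes NKp46 and is among the most NK-restricted genes, was listed at 0 in p1A3 and at 0.0174 to 0.0211 FPKM in the other 5. Corrected for depth, the highest of those 5 values was 1.06 times the lowest, so they may rest on the same small number of fragments. Klrd1 thus stood apart in level from the other NK receptors of the set.

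The plasmacytoid dendritic cell markers Siglech and Ccr9 were also highest in p1A2, at 6.52 and 3.31 FPKM, and lowest in p1C1, at 1.82 and 1.03 FPKM. Klrd1 had its highest and lowest values in the same 2 libraries. The next highest library was p1C3 for Siglech, at 5.07 FPKM, and Ccr9, at 3.21 FPKM, and p1A3 for Klrd1. Both ends were shared with Klrd1 by 3 of the 11 dendritic genes and by 6 of the 12 myeloid markers. The share of all symbols with these ends was not computed. The 3 highest libraries of Klrd1 were also those of 1 of the 12 myeloid markers and 1 of the 11 dendritic genes. These were Mpo, which also shared both ends, and Batf3. Of all symbols with a median above 0, 5.99% had these 3 libraries on top. The whole dendritic list of 11 genes summed to 117 FPKM in p1C1 at the lowest and 140 FPKM in p1A2 at the highest. Irf8 alone, at 77.1 to 89.5 FPKM, made up most of that sum in every library. The median over the 11 genes of their median level was 0.761 FPKM, and none was at 0 in any library. The part of dendritic or myeloid cells in the level of Klrd1 was not tested.

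Killing genes and chemokines were low, with Nkg7 the highest. Nkg7 encodes a granule membrane protein of cytotoxic cells and was at 3.25 FPKM in p1C2, 2.49 in p1C3, 1.45 in p1A2, 1.17 in p1C1, 1.00 in p1A3 and 0.946 in p1A1. The basophil proteases Prss34, at 8.36 FPKM, and Mcpt8, at 4.50 FPKM, were also highest in p1C2. Of the 9 mast and basophil genes above 0 in any library, 6 were highest in p1C2. The next highest library was p1A2 for Prss34, Mcpt8, Ms4a2 and Hdc, and p1A3 for Tpsab1. For Fcer1a, at 0.0598 to 0.390 FPKM, it was p1C3, as for Nkg7. Some of these were near the floor, such as Tpsab1 at 0.0827 FPKM at most. The share of all symbols highest in p1C2 was not computed. The full list of 12 mast and basophil genes had 3 members at 0 in all libraries, Mcpt4, Tpsb2 and Cma1, and summed to 14.5 to 21.7 FPKM. Their part in the level of Nkg7 was not tested. Ccl5, a chemokine of activated T cells and also of macrophages, was at 0.282 to 0.993 FPKM. Prf1, the perforin gene, was at 0.038 to 0.15 FPKM, and Gzma, the granzyme A gene, at 0 to 0.166 FPKM.

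Id2 was by far the highest of the 34 genes. It was at 137 FPKM in p1A1, 126 in p1A2, 120 in p1C2, 106 in p1A3, 91.0 in p1C1 and 83.6 in p1C3, and its median of 113 FPKM was at the percentile 97.8 of all symbols. Id2 is also widely expressed in myeloid and dendritic cells. The other regulators of NK and innate lymphoid cells did not accompany it. Tbx21, the T-bet gene of NK cells and type 1 helper cells, was listed at 0 in p1A1 and reached 0.0376 FPKM. Rora, needed for type 2 innate lymphoid cells, was at 0.236 to 0.819 FPKM.

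Cytokine receptors of these cells were low as well. Il2rb, the beta chain of the IL-2 and IL-15 receptors, was at 0.228 to 0.358 FPKM. Il18r1, a chain of the IL-18 receptor, was at 0.0973 to 0.220 FPKM. Il1rl1, the IL-33 receptor gene of type 2 innate lymphoid and mast cells, was at 0.136 to 0.265 FPKM. None of the 3 reached 1 FPKM in any library.

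A split by textbook use placed 9 genes as T-defining, 9 as NK-defining and 16 as shared with other cells. The T-defining genes summed to 15.9 FPKM in p1A3 at the lowest, 18.2 at the median and 24.0 in p1A2 at the highest. Cd28 and Cd247 made up most of that sum. Without them, a choice made after their level was seen, the sum was 0.843 FPKM in p1C1 at the lowest, 1.74 at the median and 3.92 in p1C2 at the highest. NK-defining genes summed to 2.12 FPKM in p1C1, 2.93 at the median and 4.89 in p1A2, and Klrd1 made up the largest share in p1A2. The shared genes summed to 128 FPKM in p1C3, 162 at the median and 180 in p1A1, most of it Id2. By comparison, the 12 B-lineage markers summed to 2446 FPKM in p1A2 at the lowest and 3628 FPKM in p1A3 at the highest.

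**Figure D3:**
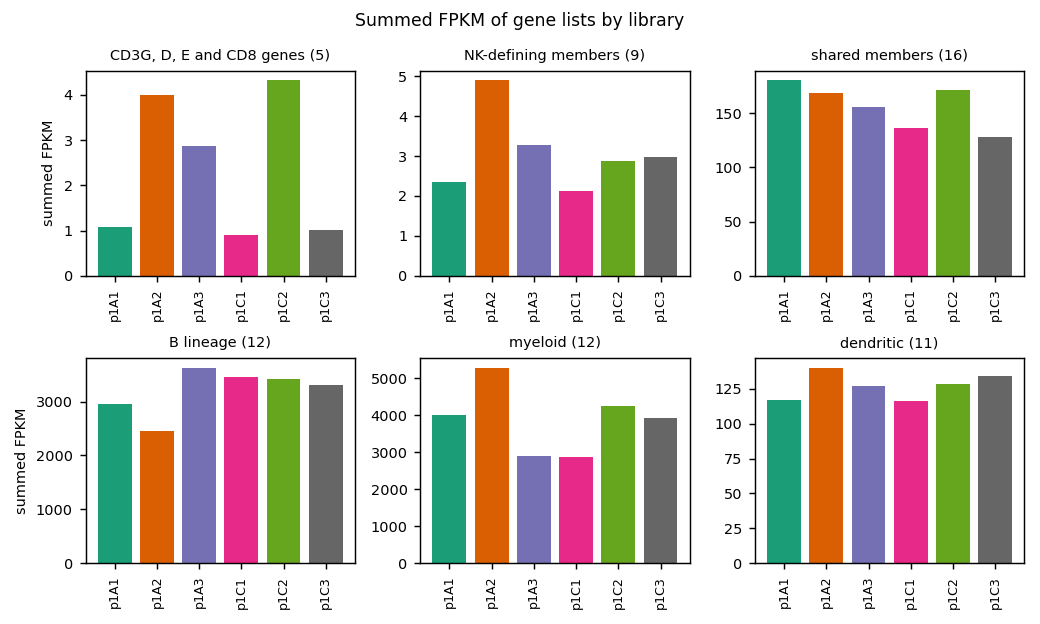
Bars from 0 give the summed FPKM of 6 gene lists in each of the 6 libraries, with the number of genes in brackets. The CD3 and CD8 sum is 2.88 to 4.32 FPKM in p1A2, p1A3 and p1C2 and 0.902 to 1.08 FPKM in the other 3, while the myeloid sum is highest in p1A2 and low in p1A3.

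The order of the CD3 and CD8 genes was rare among the myeloid and B-lineage markers, as it was among all symbols. It occurred in 1 of the 12 myeloid markers, Mpo, and in 0 of the 12 B-lineage markers. Of all symbols with a median above 0, 5.99% had it, so these counts are near that share. Library p1A3 was in the upper 3 for the CD3 and CD8 genes, but among the 3 lowest for 11 of the 12 myeloid markers. The share of all symbols with p1A3 among the 3 lowest was not computed. Of the 10 erythroid and megakaryocyte genes, 3 had the order, Hbb-b1, Klf1 and Pf4. Of the 34 genes, 10 were highest in p1A2, against 22.7% of all symbols with a median above 0. Conversely, 4 of the 34, Lat, Cd247, Cd5 and Klra1, were lowest in p1A2, the position of every B-lineage marker, against 30.7% of all such symbols.

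**Figure D4:**
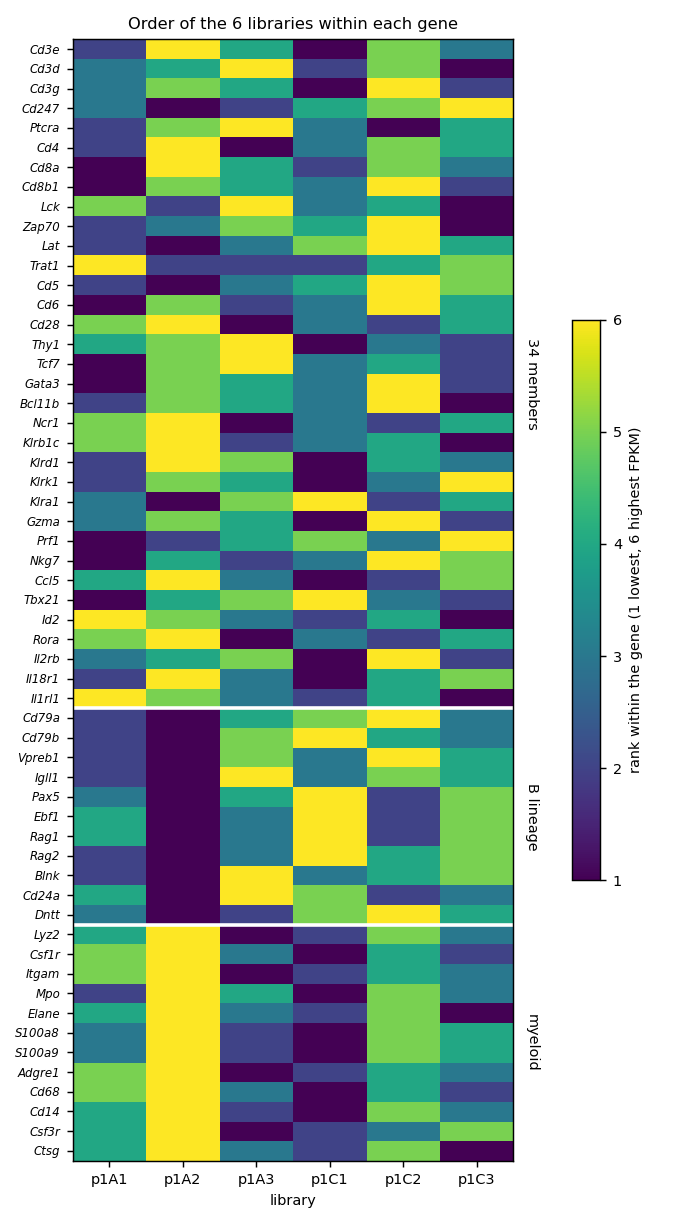
Rank of the 6 libraries (columns) within each gene (rows), from 1 for the lowest to 6 for the highest FPKM, for the 34 genes, 11 of the 12 B-lineage markers and the 12 myeloid markers. Library p1A2 is lowest in every B-lineage row drawn and highest in every myeloid row, and p1A2, p1A3 and p1C2 are the upper 3 in 11 of the 34 rows.

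Other genes of the T-cell receptor pathway gave a similar split between expressed and near-absent genes. Of 18 further T-cell genes, 13 had a row. At or above 1 FPKM in every library were 5 of these 13: Cd2, an adhesion receptor that B cells also carry, at 8.20 to 17.3 FPKM, Ubash3a, a phosphatase that restrains receptor signals, at 9.96 to 14.2 FPKM, Ptpn22, a phosphatase of lymphocytes, at 4.28 to 6.19 FPKM, Prkcq, the protein kinase C theta gene, at 2.60 to 3.92 FPKM, and Grap2, an adaptor, at 2.02 to 3.19 FPKM. The other 8 did not reach 1 FPKM in any library. Among those 8, Skap1 and Txk had p1A2, p1A3 and p1C2 as their 3 highest libraries, and they are named here because of that order. Skap1, an adaptor of T-cell receptor signalling, was at 0.397 FPKM in p1A3, 0.310 in p1C2 and 0.204 in p1A2, and at 0.104 to 0.145 FPKM in the others. No row was found for the constant-region genes of the T-cell receptor, Trac, Trbc1, Trbc2, Trdc and Trgc1, so their levels are not known here.

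Further NK and innate lymphoid genes were scarce. Of 18 other NK genes, 2 were at or above 1 FPKM in the median library, Cd244 at 1.02 to 2.31 FPKM and Klrb1f at 0.747 to 1.61 FPKM, and 2, Klrc2 and Klre1, were at 0 in all libraries. None of 10 other innate lymphoid genes reached 1 FPKM, and Il22 was at 0 in all libraries. Of 5 genes of the Notch pathway, which drives T-cell commitment and acts in other blood cells too, 4 were at or above 1 FPKM in every library. Hes1, a Notch target, was at 6.82 to 9.86 FPKM, and Notch1 itself at 3.81 to 4.21 FPKM. Neither had the order of the CD3 and CD8 genes.

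The expressed members of the set differed more between libraries than expressed genes in general. For the 9 genes at or above 1 FPKM in the median library, the median difference between highest and lowest library was 1.00 on the log2 scale of FPKM plus 0.1. Over the 10673 symbols that passed the same filter it was 0.41. The values ran from 0.42 for Cd247 and 0.43 for Lck to 1.73 for Thy1. The sets were not matched for level, and Tcf7, Nkg7 and Klrd1 were close to the filter, with medians of 1.05, 1.31 and 1.77 FPKM. With 9 genes and no test, this is a description only.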

How the data were processed

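For the 6 pro-B cultures, total RNA was extracted with Trizol and made into libraries with a TruSeq kit, per the labels' protocols, which do not state that strand was kept. Tools listed in the submitters' processing notes are TopHat2 2.0.7 and Cufflinks 2.0.0, beside FastQC and Bowtie2. Both mm9 and GRCm38 are listed as builds, with no role for either, and the gene annotation is not given in the sources used here. The authors deposited FPKM values in 23021 rows and 6 columns, 1 per library. Rows sharing a symbol were summed, and no member had more than 1 row. Columns were matched to the group by passage alone. Values, orders, sums and counts were computed with Python 3.11.15 and pandas 2.3.3, at a detection level of 1 FPKM and a pseudocount of 0.1 FPKM. Relative depth is the most common ratio to p1A1 among values of 0.001 to 0.15 FPKM. The code for orders and outlying libraries was tested on simulated data. Gene positions come from GENCODE M21 (GRCm38).

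The members and lists were chosen with earlier results of these data known. Genes were named by rule: every member is accounted for, with values by library for those reaching 1 FPKM, the CD3 chains and the coreceptors, and from other lists those with the highest medians or at 1 FPKM throughout could be named. Some other listed genes were named after their values were seen, for their order or their level in single libraries. Most genes of the other lists enter only as counts and sums, and some are not reported here by name. Alternatives were other detection levels, scalings, pseudocounts and duplicate handling, no filter, and leaving out each library.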

Additional observations from a re-analysis of the deposited data

Results flagged for a closer look

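Of the 34 genes, 3 had 1 library far from the other 5: the gap to the nearest value, as a share of the whole range, was above Dixon's critical value for 6 samples. That is 8.82% of the 34, against 6.70% of the 15886 symbols with a median above 0, and chance alone gives about 1 in 20. Lck was at 13.4 FPKM in p1A3, while the other libraries were at 9.95 to 10.8 FPKM. Klrd1 was at 3.73 FPKM in p1A2, while the others were at 1.08 to 2.05 FPKM. Ncr1 was listed at 0 in p1A3, the library with the lowest depth, and at 0.0174 to 0.0211 FPKM in the others.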

How the results depend on the processing

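Of 67 alternative values, 61 stayed within 1.5 times the reported count or within 1 SD of the reported value, and 6 moved. Part of the 61 could not have moved, so that count does not measure how firm the results are. Keeping the highest row changed nothing because no member had more than 1 row. Leaving out a library always gave a median sum within 1 SD of the reported one. Rescaling each library to the fixed total of TPM values, which multiplies every FPKM because the deposited sums are 367094 to 413152, raised the genes at or above 1 in the median library from 9 to 15 and those in every library from 7 to 11. It also raised the median summed level of the T-defining genes to 46.3, of the NK-defining genes to 7.39 and of the shared genes to 403. Leaving out Cd28 and Cd247, an alternative added after seeing the data, lowered the T-defining sum to 1.74 FPKM. Scaling by the upper quartile kept 11 genes, and scaling to that total 10, with p1A2, p1A3 and p1C2 on top, and all 5 CD3 and CD8 genes kept that order under both. Under these scalings 3.95% and 3.00% of all symbols had it. The counts of 11 and 10 include the 5 genes in which the order was noticed. Leaving out each library in turn gave 8 to 11 genes at or above 1 FPKM in the median library, 7 to 8 in every library and 0 listed at 0 throughout. The T-defining sum was then 17.4 to 19.0 FPKM, the NK-defining sum 2.87 to 2.99, the shared sum 156 to 169 and the median log2 difference 0.68 to 1.02. The depth of the libraries is known only relative to p1A1, so genes below about 0.1 FPKM cannot be ordered with confidence. No paired analysis was possible because no column was matched to a genotype.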

Other observations

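By the letter in the column names, which no label explains, 4 of the 34 genes (11.8%) had 3 libraries of 1 letter above all 3 of the other, and 10.0% of all 15886 symbols with a median above 0 did so. Lat was at 23.5, 20.0 and 24.6 FPKM in p1A1, p1A2 and p1A3, and at 27.6, 27.7 and 24.9 FPKM in p1C1, p1C2 and p1C3. Cd247 was at 5.92, 5.17 and 5.89 FPKM in the A libraries and 6.14, 6.53 and 6.93 FPKM in the C libraries. Cd5 was at 0.919, 0.892 and 0.972 FPKM in the A libraries and 1.00, 1.22 and 1.12 FPKM in the C libraries. Thy1 went the other way, at 3.95, 4.10 and 5.12 FPKM in the A libraries and 1.47, 3.56 and 2.51 FPKM in the C libraries. The CD3 and CD8 genes did not separate by letter.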
